A study of Mus musculus with 4 samples.

Results

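The 6 genes described here, *Wfdc1*, *Wfdc2*, *Wfdc10*, *Wfdc18*, *Eppin* and *Slpi*, encode secreted proteins with a whey acidic protein (WAP) domain. They were taken by gene symbol from the 31053 genes of the count matrices, and all 6 symbols were found in each of the 4 libraries. The libraries held single cells from the part of the testis around the rete testis (RT) and the adjoining seminiferous tubules of C57BL/6 mice at postnatal day 14. Each of the 4 libraries, 2 from controls and 2 from *Sox17*-cKO mice, pooled the cells of 3 pups. In *Sox17*-cKO mice, both *Sox17* alleles are floxed and *Cre* is driven by *Nr5a1* (also called SF1), a driver that acts in the somatic cells of the gonad and not in RT cells alone. The genotype field of the control libraries reads SF1Cre, whereas the study's methods describe its controls as floxed littermates, so whether the controls carried *Cre* is not settled here.

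A WAP domain is a short fold held together by cysteine bridges, and several proteins that carry it inhibit serine proteases at epithelial surfaces. SLPI inhibits leukocyte elastase in mucosal secretions, and EPPIN, which joins a WAP domain to a Kunitz domain, coats spermatozoa. WFDC2, also called HE4, is secreted by the epithelia of the male tract and the airways, and WFDC1 was described as a growth inhibitor from prostate stroma. WFDC18 is known from the involuting mammary gland, and little is known of WFDC10. In the male tract these proteins are best known from the epididymis, downstream of the RT. The RT is the epithelial network that collects spermatozoa from the tubules, and the Sertoli valve (SV) is the ring of modified Sertoli cells where a tubule meets it.

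In GRCm38 with the GENCODE vM21 annotation, 4 of the 6 genes lay within 303299 bases of chromosome 2 (chr2:164354070-164657368), a stretch with 18 protein-coding genes. *Slpi* (chr2:164354070-164389095, minus strand) stood at one end, followed by *Wfdc2* (chr2:164562413-164568510, plus strand), *Eppin* (chr2:164588343-164593594, minus strand) and *Wfdc10* (chr2:164656046-164657368, plus strand). *Wfdc10* overlapped the oppositely oriented *Wfdc9* over 538 bases, of which 0 were exonic in both genes. *Wfdc18* lay on the plus strand of chromosome 11 (chr11:83709015-83711348), between *Wfdc17* and *Wfdc21*, and *Wfdc1* on the plus strand of chromosome 8 (chr8:119666365-119688222), where it overlapped the minus-strand gene *Gm32352* over 4517 bases.

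Sequences 5′ of a RefSeq transcription start are shown for the 2 genes that differed most between genotypes in RT-like cells (*Wfdc2* and *Eppin*) and for the 2 with the clearest Sertoli pattern (*Wfdc10* and *Wfdc18*). They come from the RefSeq promoter table for GRCm38.p6, which held 5 of the 6 genes, and bases inside annotated exons were left out. Each reads 5′ to 3′ on the strand of the gene, and capitals mark the letters AACAAT, a core motif of SOX factors. The coordinates are chr2:164562475-164562578 for *Wfdc2*, chr2:164593595-164593821 for *Eppin*, chr2:164655796-164656045 for *Wfdc10* and chr11:83708754-83709003 for *Wfdc18*. The table lists 2 starts for *Wfdc2*, and the stretch shown, before the first of these, lies inside the GENCODE gene and outside its exons (146 of the 250 bases of this window were exonic).
Wfdc2: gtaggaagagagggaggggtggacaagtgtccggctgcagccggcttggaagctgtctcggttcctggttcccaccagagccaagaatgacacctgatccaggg
Eppin: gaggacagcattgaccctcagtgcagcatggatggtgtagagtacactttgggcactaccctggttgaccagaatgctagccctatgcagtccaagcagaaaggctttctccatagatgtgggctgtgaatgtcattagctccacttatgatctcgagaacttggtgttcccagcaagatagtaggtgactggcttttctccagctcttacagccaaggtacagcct
Wfdc10: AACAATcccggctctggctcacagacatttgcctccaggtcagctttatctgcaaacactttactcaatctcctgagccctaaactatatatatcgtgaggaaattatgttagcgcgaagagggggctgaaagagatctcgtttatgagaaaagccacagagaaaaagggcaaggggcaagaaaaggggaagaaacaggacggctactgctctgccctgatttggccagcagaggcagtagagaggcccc
Wfdc18: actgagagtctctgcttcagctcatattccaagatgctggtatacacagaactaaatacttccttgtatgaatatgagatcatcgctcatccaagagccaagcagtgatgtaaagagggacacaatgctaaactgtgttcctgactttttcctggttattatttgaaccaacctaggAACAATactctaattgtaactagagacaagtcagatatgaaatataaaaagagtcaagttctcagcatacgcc

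AACAAT or its reverse complement ATTGTT was searched in the 250 bases before the start of each gene. It stood in 2 of the 5 windows, beginning 250 bases before the start of *Wfdc10* and 73 bases before that of *Wfdc18*, and in 9.6% of 27025 promoters of the same length. The letters AAGGTCA, a core motif of NR5A1, or their reverse complement TGACCTT were in 0 of the 5 windows and in 4.1% of all promoters. The window of *Wfdc2* was the richest of the 5 in G and C (64.8%) and that of *Wfdc18* the poorest (38.4%), with a median of 52.0% over all promoters.

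The files held 9388 to 13364 barcodes and 89969877 to 107203219 unique molecular identifiers (UMIs, counted RNA molecules) per library, and 22567 cells with 1000 to 4500 detected genes were kept. Any 2 libraries shared 20 to 43 barcodes. The cells were grouped into classes without the 6 genes, and a class is called "X-like" after the marker list it carried. The RT-like class was small, with 36 and 73 cells in control 1 and 2 and 32 and 85 in *Sox17*-cKO 1 and 2. It carried *Pax8*, a transcription factor of the RT, at 378 UMIs per 1000000 UMIs (CPM) against 1.32 CPM in the pooled cells of the other classes. Of the 8 RT markers listed, 4 met the rule for naming the class. The 5353 Sertoli-like cells were divided into 404 SV Sertoli-like cells, which carried the SV marker list, and 4949 tubule Sertoli-like cells. That list holds genes the study names or lists for its SV Sertoli cluster in these libraries, so it does not test the name independently. *Cyp26a1* of this list was also among the leading genes of a tubule Sertoli-like sub-cluster of 588 cells. In 3 sub-clusters of the tubule Sertoli-like cells (789, 752 and 39 cells, 1580 in all), some leading genes were germ cell markers. The genes highest against other Sertoli-like cells held 4, 1 and 1 markers of germ cells, such as *Sycp3*, *Dazl*, *Uchl1* or *Ldhc*, and 0 of Sertoli cells. Without these cells, the Sertoli-like comparison of genotypes had 0 calls, as with them. The calls of the 6 genes in the comparison of RT-like with Sertoli-like changes remained. *Sox17* was at 356 and 312 CPM in the RT-like cells of the controls and at 46.0 and 34.7 CPM in those of *Sox17*-cKO mice, which matched the labels (log2 fold change -3.13, SE 0.34, edgeR adjusted p = 0.0127).

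The 6 genes had their highest levels in 5 different classes. *Wfdc2* was highest in RT-like cells, *Wfdc10* and *Eppin* in tubule Sertoli-like cells, *Wfdc18* in SV Sertoli-like cells, *Wfdc1* in peritubular myoid-like cells and *Slpi* in mesothelial-like cells. These levels describe the classes without a test, since the classes come from the same cells. They are given as the mean ± SD over the 4 libraries.

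*Wfdc10* reached 1976 ± 960 CPM in tubule Sertoli-like cells (SD, n = 4) and 1191 ± 569 CPM in SV Sertoli-like cells, and the libraries of these neighbours overlapped. The other 10 classes had means of 36.2 to 146 CPM, below the lowest Sertoli library. Of the 70991 *Wfdc10* UMIs in the kept cells, 79.7% were in tubule Sertoli-like cells and 5.12% in SV Sertoli-like cells. A UMI of *Wfdc10* was found in 98% of tubule Sertoli-like cells (95% exact binomial interval 97.6 to 98.4, median 5067 UMIs per cell), but also in 33.1% of spermatogonia-like cells (31.6 to 34.7, median 10109 UMIs), germ cells that served as the background for RNA from other cells. Cells were also thinned to 2000 UMIs, which left out those with fewer (480 tubule Sertoli-like and 130 spermatogonia-like cells). These shares were then 89.8% and 9.8%. Intervals of this kind cover counting error only.

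*Eppin* followed the same order at the top, with 335 ± 101 CPM in tubule Sertoli-like cells (SD, n = 4) and 112 ± 46.6 CPM in SV Sertoli-like cells. In each library the tubule level was above the SV level. RT-like cells came next with a mean of 45.2 CPM, but their 4 libraries ranged from 6.92 to 83.1 CPM and overlapped both the SV Sertoli-like and the spermatocyte-like libraries. The share of cells with an *Eppin* UMI was 65.3% in tubule Sertoli-like cells (64.0 to 66.6) and 7.3% in spermatogonia-like cells (6.5 to 8.2).

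*Wfdc18* showed the reverse order within the Sertoli lineage. SV Sertoli-like cells had 231 and 416 CPM in the controls and 657 and 685 CPM in the *Sox17*-cKO libraries, whereas tubule Sertoli-like cells had 12.8, 16.7, 18.1 and 34.9 CPM in the same order. The SV level was 18.1 to 36.3 times the tubule level of the same library. For comparison, the SV level of *Wfdc10* was 0.568 to 0.649, that of *Eppin* 0.269 to 0.47 and that of *Wfdc1* 0.419 to 0.517 times the tubule level. The SV Sertoli-like cells, 1.79% of the kept cells, held 63.5% of the 2290 *Wfdc18* UMIs. A *Wfdc18* UMI was found in 61.4% of SV Sertoli-like cells (56.4 to 66.2, median 6895.5 UMIs per cell), in 8.7% of tubule Sertoli-like cells (8.0 to 9.6) and in 1.0% of spermatogonia-like cells (0.7 to 1.3), and after thinning in 43.7%, 4.0% and 0.2%. The SV Sertoli-like cells fell into a pair of sub-clusters. The smaller one, with 150 cells and a median of 3456 UMIs, had 996 CPM of *Wfdc18*, and the larger one, with 254 cells and a median of 9330 UMIs, had 371 CPM.

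By class mean, *Wfdc1* was highest outside the Sertoli lineage, although a tubule Sertoli-like sub-cluster of 588 cells had 433 CPM with its libraries pooled. Peritubular myoid-like cells, the contractile cells around the tubules, had 346 ± 57.0 CPM (SD, n = 4) and tubule Sertoli-like cells 254 ± 103 CPM, and the libraries of these neighbours overlapped. Mesothelial-like cells (152 CPM, from 23 UMIs), SV Sertoli-like cells (119 ± 47.6 CPM) and stroma-like cells (80.4 ± 40.3 CPM) followed in this order, each overlapping the next. A *Wfdc1* UMI was found in 87.3% of myoid-like cells (85.8 to 88.7) and in 53.3% of tubule Sertoli-like cells (51.9 to 54.7), against 4.2% of spermatogonia-like cells (3.6 to 4.9). The tubule Sertoli-like cells, which were more numerous, held 40.4% of the 17505 *Wfdc1* UMIs and the myoid-like cells 32.9%.

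*Wfdc2* stood at 60.5 and 86.6 CPM in the RT-like cells of the controls and at 928 and 379 CPM in those of the *Sox17*-cKO libraries. The mean of 363 ± 403 CPM (SD, n = 4) therefore joined a pair of genotypes that did not overlap. Mesothelial-like cells came next at 43.7 ± 43.7 CPM, a value that rests on 5 UMIs. The remaining classes had means of at most 14.7 CPM, the level of SV Sertoli-like cells. The RT-like cells of the 4 libraries held 49.2% of the 1096 *Wfdc2* UMIs. In the controls alone, RT-like cells were above every other class with the exception of the mesothelial-like cells of control 1, where a single UMI gave 104 CPM.

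*Slpi* was found almost exclusively in a class of 17 mesothelial-like cells, cells of the outer covering of the testis. Control 1 and 2 had 10315 and 5784 CPM there, from 2 and 9 cells, and *Sox17*-cKO 1 and 2 had 529 and 3779 CPM, from 3 cells each. The cells were too few for a comparison of genotypes. Of the 769 *Slpi* UMIs, 97.0% were in this class, and 16 of its 17 cells had one. The means of the other 11 classes were at most 1.72 CPM, that of macrophage-like cells, and RT-like cells held 1 UMI of *Slpi* in all.

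**Figure D1:**
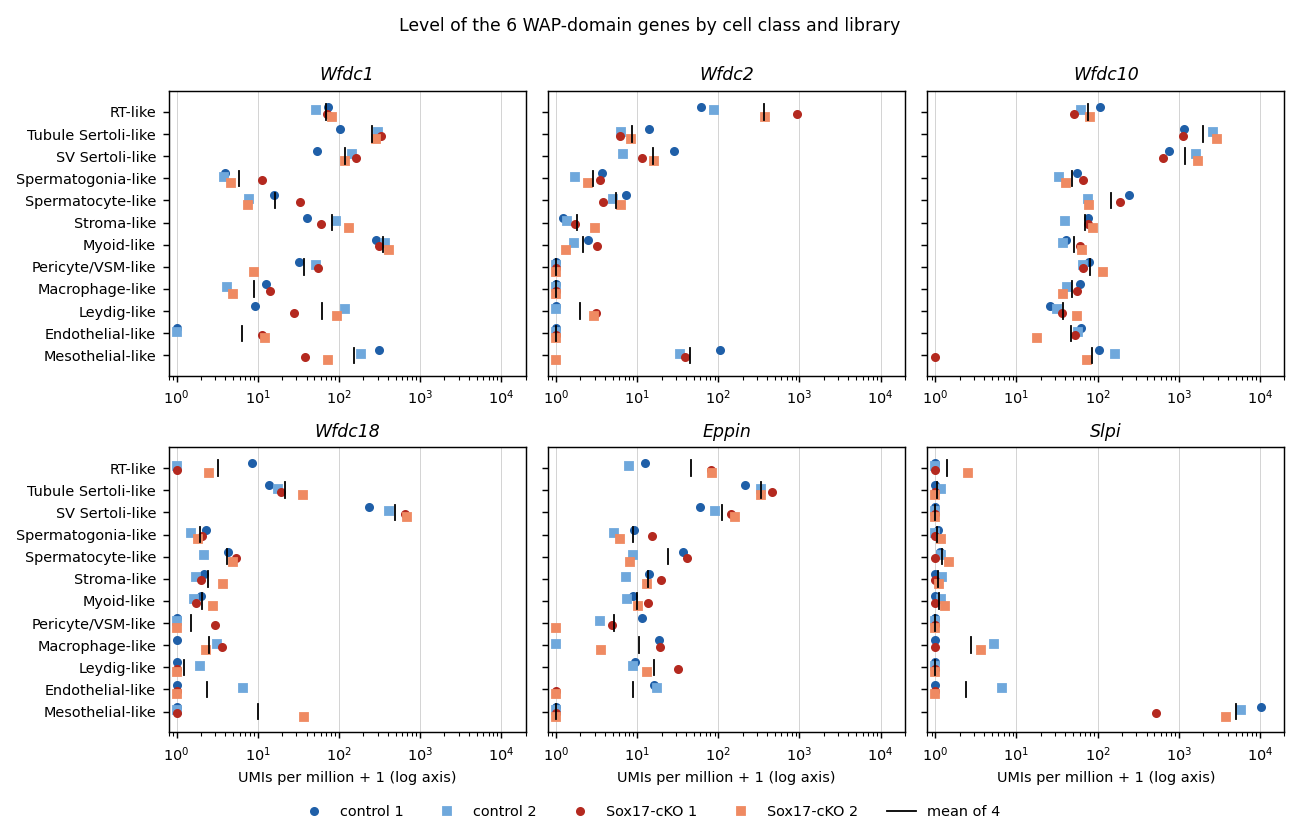
Level of the 6 genes in 12 cell classes, as CPM plus 1 on a log axis; each point is a library and the black line is the mean of 4 libraries. *Wfdc18* separates SV from tubule Sertoli-like cells, *Slpi* is confined to mesothelial-like cells apart from means of at most 1.72 CPM elsewhere, and *Wfdc2* in RT-like cells splits by genotype.

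Likeness to other genes was measured as Pearson's r of log2 levels over 36 sums (9 classes with at least 20 cells in every library, 4 libraries) among 16276 genes. The sums share libraries and depths, so r is a description. *Wfdc10* was most like *Inha* (r = 0.98), *Tubb3* (0.97) and *Cst9* (0.96), and *Eppin* most like *1700011M02Rik* (0.92), *Kif21a* (0.91) and *Tpd52l1* (0.91). *Wfdc18* was most like *Robo4* (0.94), *Ces1a* (0.94) and *Clca3a2* (0.93), each highest in SV Sertoli-like cells. *Wfdc2* was most like *Glb1l2* (0.92), *Ptgds* (0.91) and *Kcne1* (0.90), each highest in RT-like cells, and *Wfdc1* was most like *Mmd2* (0.91), *Carmil1* (0.90) and *Acsbg1* (0.89). *Slpi* had fewer than 50 UMIs in these classes. Among the 6 genes, the highest r were those of *Wfdc10* with *Wfdc18* and with *Eppin*, both 0.82.

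Of 18 other WAP-domain genes listed, 17 were in the matrices, and 9 of these had a mean above 5 CPM in some class. *Wfdc9*, the antisense neighbour of *Wfdc10*, was highest in tubule Sertoli-like cells (136 ± 16.1 CPM), as were *Wfdc6a* (34.2 CPM) and *Wfdc6b* (8.15 CPM). *Wfdc15a* (72.3 CPM), *Wfdc3* (11.7 CPM) and *Wfdc12* (6.06 CPM) were highest in spermatocyte-like cells, *Wfdc17* in macrophage-like cells (91.9 CPM) and *Wfikkn2* in stroma-like cells (19.4 CPM). *Wfdc15b* reached 9.45 CPM in mesothelial-like cells from 1 UMI. *Wap*, *Wfdc5* and *Wfdc21* had 0 UMIs in every named class.

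The change with genotype was examined first in RT-like cells, the cells that normally express *Sox17*. UMIs were summed per library and tested with edgeR, 2 libraries against 2, and an adjusted p below 0.05 was called. Groups of 2 libraries often lie apart without an effect of genotype, so a lack of overlap is given as a description only. The share of all genes tested that did not overlap was not counted. Each library is a pool of pups, so the p-values refer to the spread between pools. The fits have 2 residual degrees of freedom and a prior worth 7.28 in RT-like, 6.35 in Sertoli-like and 17.6 in SV Sertoli-like cells. Their p-values thus lean on the spread shared by all genes. Of 6778 genes tested, 9 were called (0.133%), of which 1 was higher (0.0148%) and 8 were lower (0.118%) in *Sox17*-cKO. Of the 6 WAP genes, 4 had enough UMIs to be tested and 0 were called, although *Wfdc2* and *Eppin* missed the threshold narrowly. DESeq2 called both among 20 genes in all, with adjusted p = 1.98e-06 for *Wfdc2* and 0.0487 for *Eppin*. So did edgeR with the replicate number, which separates the versions of the counting software, as a block, among 273 genes in all (adjusted p = 6.89e-27 and 1.71e-08). That blocked fit has fewer residual degrees of freedom still.

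*Wfdc2* in RT-like cells had 16 and 50 UMIs in the controls and 222 and 251 UMIs in *Sox17*-cKO mice. The levels were 60.5 and 86.6 CPM against 928 and 379 CPM, so both *Sox17*-cKO libraries lay above both controls. The log2 fold change was 3.06 (SE 0.47, 8.35-fold), with an edgeR p of 1.02e-04 that became 0.0575 after adjustment over all genes. Within the same replicate number the levels were 15.3 times (number 1) and 4.38 times (number 2) those of the control. With any 1 library left out, the log2 fold change of *Wfdc2* was 2.28 to 3.58. *Wfdc2* was not called by edgeR with the highest doublet scores removed (adjusted p = 0.139) or without integration (0.0873). Nor was it called with the WAP genes kept in the clustering (0.0763) or at resolution 0.8 (0.0575). It was called without a filter on low counts (1.07e-11), below 10% mitochondrial UMIs (0.0255) and with up to 7500 detected genes (0.00478).

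*Eppin* in RT-like cells had 3 and 4 UMIs in the controls and 19 and 55 UMIs in *Sox17*-cKO mice. These were 11.3 and 6.92 CPM against 79.4 and 83.1 CPM, again without overlap, and the control values rest on counts near the floor of 3. The log2 fold change was 3.20 (SE 0.48, 9.17-fold), with edgeR adjusted p = 0.0523. In this comparison *Eppin* passed the filter on low counts through its *Sox17*-cKO libraries alone. Its place among the genes tested thus depends on the difference itself. The log2 fold change of *Eppin* was 2.78 without control 2 and 3.14 without *Sox17*-cKO 2, neither of them called. Without control 1 it was 3.50, and without *Sox17*-cKO 1 it was 3.24. When cells with up to 7500 detected genes were admitted, the log2 fold change was 1.72, with edgeR adjusted p = 0.0573.

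*Wfdc1* in RT-like cells had 71.9 and 51.9 CPM in the controls and 71.1 and 81.5 CPM in *Sox17*-cKO mice, with overlap (log2 fold change 0.32, SE 0.36, edgeR adjusted p = 0.997). *Wfdc10* had 106 and 60.6 CPM against 50.2 and 80.04 CPM, also with overlap (-0.27, SE 0.41, edgeR adjusted p = 0.997). *Wfdc18*, with 3 UMIs over the 4 libraries, and *Slpi*, with 1, were not tested.

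The RT-like UMIs of *Wfdc2* were spread over more cells in *Sox17*-cKO mice. A *Wfdc2* UMI was found in 8 of 36 and 17 of 73 control cells (22.2%, exact interval 10.1 to 39.2, and 23.3%, 14.2 to 34.6) and in 20 of 32 and 53 of 85 *Sox17*-cKO cells (62.5%, 43.7 to 78.9, and 62.4%, 51.2 to 72.6). Median depths were 7128.5, 7806, 6918 and 7889 UMIs per cell, and spermatogonia-like cells had shares of 0.709% to 2.30%. With cells thinned to 2000 UMIs, which left out 8 RT-like cells, the shares were 2.86% and 9.86% in the controls and 48.3% and 36.1% in *Sox17*-cKO mice. *Eppin* was found in 3 and 4 control cells and in 6 and 24 *Sox17*-cKO cells, or 8.33% (1.75 to 22.5) and 5.48% (1.51 to 13.4) against 18.8% (7.21 to 36.4) and 28.2% (19.0 to 39.0). Spermatogonia-like cells had 7.09%, 4.08%, 10.9% and 4.88% in the same libraries and spermatocyte-like cells 16.1%, 4.78%, 17.5% and 4.38%, controls first. The *Eppin* shares of both controls and of *Sox17*-cKO 1 thus had intervals that held these background shares, and that of *Sox17*-cKO 2 lay above them.

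Single cells held a large part of some sums. In *Sox17*-cKO 1, 1 cell held 54 of 222 *Wfdc2* UMIs and 1 cell held 10 of 19 *Eppin* UMIs. Without the highest cell of each library, *Wfdc2* was at 36.0, 74.5, 746 and 324 CPM, and *Eppin* at 7.80, 5.27, 39.3 and 69.3 CPM, with both controls first and both *Sox17*-cKO libraries after them. The groups still did not overlap. Cells with a UMI of both genes numbered 1 and 2 in the controls and 5 and 21 in *Sox17*-cKO mice.

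**Figure D2:**
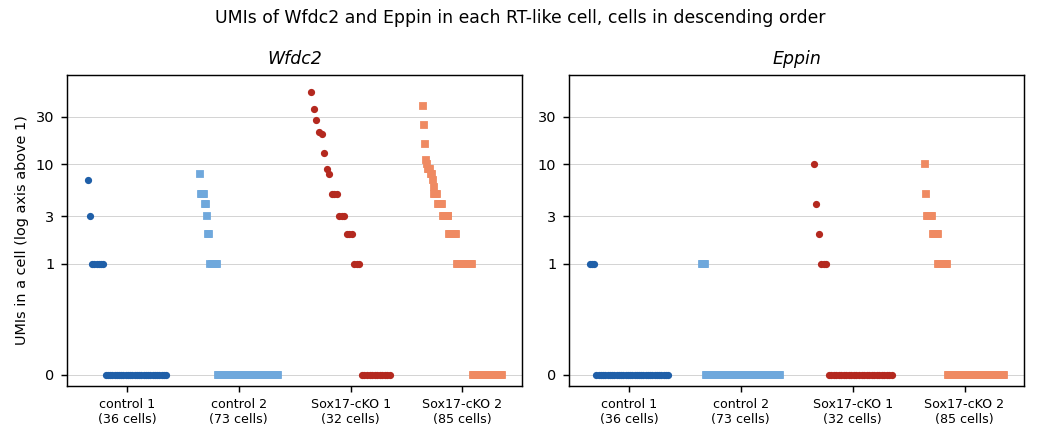
UMIs of *Wfdc2* and *Eppin* in every RT-like cell, by library, with cells in descending order and a log axis above 1. Control cells reach 8 UMIs of *Wfdc2* and 1 of *Eppin*, whereas *Sox17*-cKO cells reach 54 and 10.

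Markers of other cell types in the RT-like sums were compared beside these values. The 15 Sertoli markers summed to 5019 and 3518 CPM in the controls and to 4660 and 4000 CPM in *Sox17*-cKO mice; 1 of the 15 was higher and 3 were lower in both *Sox17*-cKO libraries, and *Amh* was at 0 in all. The 6 efferent duct markers, from the ducts that follow the RT, summed to 393 and 350 against 171 and 180 CPM, with *Lrp2* at 0 and 0 higher and 2 lower (*Tppp3* and *Cfap126*) in both *Sox17*-cKO libraries. Of this list, *Foxj1* and *Cfap126* marked the RT-like class itself, at 78.6 and 135 CPM pooled against 0.839 and 2.08 CPM in the other classes. *Lrp2*, *Cubn* and *Pax2* were at most 1.15 CPM in the RT-like class, so the sum does not measure duct cells. The 7 mesothelial markers summed to 163 and 135 against 66.9 and 58.9 CPM, with *Msln* and *Muc16* at 0 and 2 higher and 2 lower in both *Sox17*-cKO libraries. Most of this sum in the controls was *Rspo1*, a secreted activator of WNT signalling, at 132 and 104 against 16.7 and 6.04 CPM. *Rspo1* was among the genes called lower in RT-like cells (log2 fold change -3.66, SE 0.51, edgeR adjusted p = 0.0376). *Upk3b*, a uroplakin of the mesothelium, had 18.9 and 17.3 against 33.4 and 24.2 CPM, and *Gpm6a* had 7.56 and 10.4 against 16.7 and 28.7 CPM, both higher in the 2 *Sox17*-cKO libraries. The *Gpm6a* level of control 1 lay below the floor of 3 counts in that library, 11.3 CPM. The 6 endothelial markers summed to 511 and 469 against 385 and 284 CPM, with 1 higher and 2 lower in both *Sox17*-cKO libraries, and the 11 SV Sertoli markers to 632 and 649 against 761 and 867 CPM, with 3 higher and 4 lower in both *Sox17*-cKO libraries and *Cyp26a1* at 0. The RT markers themselves summed to 685 and 895 against 761 and 1044 CPM, with 4 of 8 higher and 0 lower in both *Sox17*-cKO libraries. Among the 4 were the epithelial genes *Epcam* (22.7 and 67.5 against 138 and 171 CPM) and *Krt8* (94.6 and 113 against 138 and 186 CPM). *Epcam* and *Cdh2* of this list did not mark the class, at 110 and 44.2 CPM pooled against 101 and 50.2 CPM in the other classes. The sums of the SV Sertoli list were thus higher in both *Sox17*-cKO libraries, like *Wfdc2* and *Eppin*, although 3 of its genes were higher and 4 lower. Of the RT markers 4 were higher and 0 lower, and the mesothelial list was split, with 2 higher and 2 lower. The sums of the efferent duct and endothelial lists were lower, as was that of the mesothelial list with *Rspo1* in it. The part of these markers in the result was not tested.

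*Eppin* was further set against *Wfdc10*, the other gene with its highest level in tubule Sertoli-like cells. Tubule Sertoli-like cells had 0.180, 0.125, 0.404 and 0.115 *Eppin* UMIs per *Wfdc10* UMI, again with the controls first. The ratio was 0.0543 to 0.219 in SV Sertoli-like cells and 0.0914 to 0.245 in spermatogonia-like, spermatocyte-like, stroma-like and myoid-like cells, so it also differed between classes of the same library. RT-like cells had 0.107 and 0.114 in the controls and 1.58 and 1.04 in *Sox17*-cKO mice, the latter above the other classes shown. The control ratios rest on 3 *Eppin* and 28 *Wfdc10* UMIs in control 1, with 16 of the 28 in 1 cell, and on 4 and 35 UMIs in control 2. Those of *Sox17*-cKO 1 and 2 rest on 19 and 12 and on 55 and 53 UMIs, with 10 of the 19 *Eppin* UMIs of *Sox17*-cKO 1 in 1 cell. *Eppin* was set against no other gene in this way, and what sets the ratio was not tested.

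**Figure D3:**
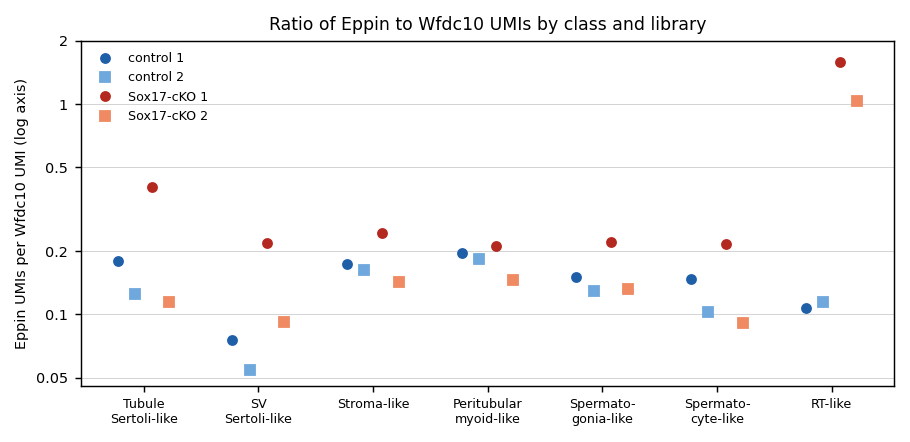
*Eppin* UMIs per *Wfdc10* UMI, on a log axis, in 7 classes; each point is a library. The RT-like cells of the *Sox17*-cKO libraries lie at 1.58 and 1.04, and the other points at 0.404 or below.

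The same 4 libraries were then compared in the Sertoli-like cells, which border the RT at the SV. Over all Sertoli-like cells, edgeR called 0 of 12161 genes (0%), with 99 at an unadjusted p under 0.05, and DESeq2 called 0. Of the 6 WAP genes, 5 were tested and 0 were called. Their median log2 fold change, which is that of *Wfdc1*, was 0.41, with 3 of the 5 positive, against -0.010 over all genes tested. A shift of these genes as a group was not tested. The Sertoli-like class consisted of a cluster of deeper cells (median 8440.5 UMIs), which held most Sertoli-like cells of control 1 and *Sox17*-cKO 2, and a cluster of shallower cells (median 2708 UMIs), which held most of those of control 2 and *Sox17*-cKO 1.

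*Wfdc18* in Sertoli-like cells had 30.3 and 51.2 CPM in the controls and 60.2 and 113 CPM in *Sox17*-cKO mice. The groups did not overlap, but the log2 fold change of 0.96 (SE 0.40) had an unadjusted edgeR p of 0.0428 and an adjusted p of 1. Leaving out *Sox17*-cKO 2 brought it to 0.41 and leaving out control 2 to 1.46, and it was 0.44 among cells below 10% mitochondrial UMIs. Of the UMIs behind these values, 204 of 333, 215 of 306, 317 of 441 and 719 of 986 came from SV Sertoli-like cells, controls first, and these made up 122 of 1701, 63 of 958, 66 of 1351 and 153 of 1343 Sertoli-like cells, so the mix of the class enters the level. How far the mix sets the level was not tested. The order held in both clusters, which differ in depth and can each mix SV with tubule cells. It was 24.1 and 38.7 against 45.3 and 96.8 CPM in the deeper cells and 61.6 and 75.4 against 89.8 and 159 CPM in the shallower cells. *Eppin* had 199 and 310 CPM in the controls and 437 and 317 CPM in *Sox17*-cKO mice, groups that lay next to each other without overlap (log2 fold change 0.43, SE 0.35, edgeR adjusted p = 1).

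*Wfdc10* in Sertoli-like cells followed the replicate number and not the genotype. The controls had 1138 and 2565 CPM and the *Sox17*-cKO libraries 1099 and 2799 CPM, so number 2 was 2.25 and 2.55 times number 1. The log2 fold change by genotype was -0.07 (SE 0.54, edgeR adjusted p = 1). The same order was found in the deeper cells (1044 and 2367 against 912 and 2554 CPM) and in the shallower cells (1613 and 2951 against 1471 and 3474 CPM). The libraries numbered 1 and 2 were counted with Cell Ranger 6.0.2 and 6.1.2, and the part of this in the result was not tested.

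*Wfdc1* in Sertoli-like cells had 97.1 and 292 CPM in the controls and 314 and 262 CPM in *Sox17*-cKO mice, with overlap (log2 fold change 0.41, SE 0.49, edgeR adjusted p = 1). *Wfdc2* had 14.2 and 5.35 against 5.46 and 8.28 CPM, also with overlap (-0.62, SE 0.47, edgeR adjusted p = 1). *Slpi* had 1 UMI in all Sertoli-like cells and was not tested.

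In the SV Sertoli-like cells alone, edgeR called 0 of 7512 genes (0%), with 103 at an unadjusted p under 0.05, and DESeq2 called 0. Again 5 of the 6 genes were tested and 0 were called. *Wfdc18* had 204 and 215 UMIs in the controls and 317 and 719 in *Sox17*-cKO mice, or 231 and 416 against 657 and 685 CPM. The groups did not overlap, and the log2 fold change was 1.01 (SE 0.35, 2.01-fold), with an unadjusted edgeR p of 0.00936 and an adjusted p of 1. Within the sub-cluster of shallower cells *Wfdc18* had 580 and 900 CPM in the controls and 1602 and 976 CPM in *Sox17*-cKO mice, and within that of deeper cells 188 and 250 against 424 and 588 CPM. With 1 library left out the log2 fold change was 0.60 to 1.54.

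*Eppin* in SV Sertoli-like cells was close to *Wfdc18* in size of difference. It had 57.8 and 89.0 CPM in the controls and 141 and 159 CPM in *Sox17*-cKO mice, without overlap. The log2 fold change was 1.01 (SE 0.34), with an unadjusted edgeR p of 0.00823 and an adjusted p of 1. It was 1.62 among cells below 10% mitochondrial UMIs and 0.60 with cells of up to 7500 detected genes, neither of them called. *Wfdc10* (-0.07, SE 0.43), *Wfdc1* (0.46, SE 0.41) and *Wfdc2* (-0.46, SE 0.63) each overlapped between genotypes in these cells. The median log2 fold change of the 5 genes, which is that of *Wfdc1*, was 0.46, with 3 of them positive, against 0.0021 over all genes tested. A shift of the genes as a group was not tested.

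**Figure D4:**
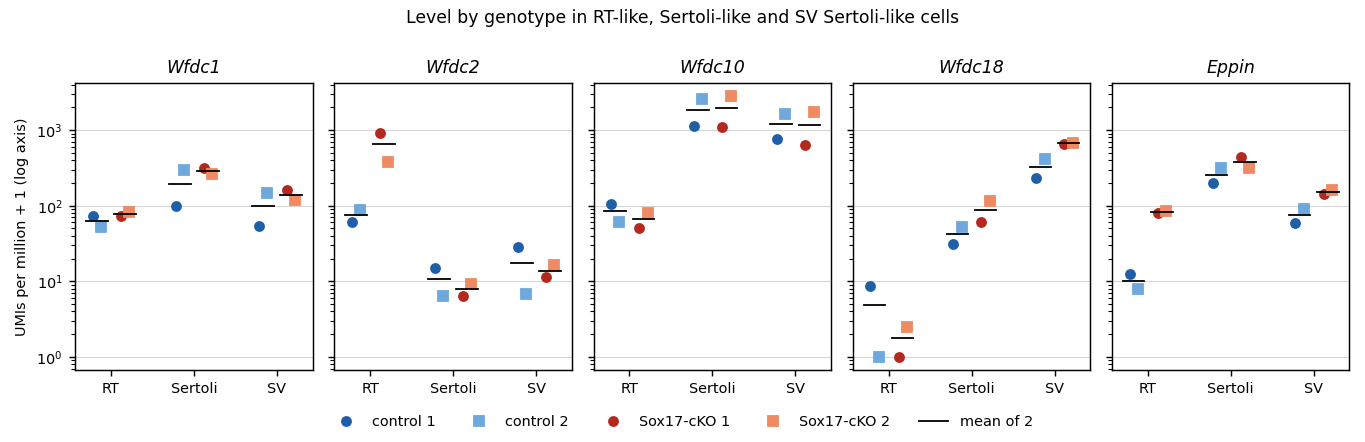
Level of 5 of the genes in RT-like, all Sertoli-like and SV Sertoli-like cells, as CPM plus 1 on a log axis; points are libraries and lines the mean of 2. *Wfdc2* and *Eppin* in RT-like cells and *Wfdc18* and *Eppin* in both sets of Sertoli-like cells do not overlap between genotypes, and edgeR called none of these. The share of all genes tested that do not overlap was not counted. *Wfdc10* separates by replicate number in Sertoli-like cells.

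The change with genotype in RT-like cells was then set against that in Sertoli-like cells by an interaction term, in a fit that blocked on the library. Of 12650 genes tested, 57 were called by edgeR (0.451%), 23 with a more positive (0.182%) and 34 with a more negative change (0.269%) in RT-like cells. Of the 6 WAP genes, 5 were tested and 2 were called, *Wfdc2* and *Eppin*, both more positive in RT-like cells. The fit has 2 residual degrees of freedom and a prior worth 124, so its p-values lean on the spread shared by all genes.

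For *Wfdc2* the log2 fold change in RT-like cells exceeded that in Sertoli-like cells by 3.37 (SE 0.37, edgeR adjusted p = 1.94e-11), and the call held under each of 15 alternatives, with adjusted p of at most 0.00311. Its size depended on the libraries, at 2.53 without control 1, 2.49 without *Sox17*-cKO 1, 4.31 without control 2 and 4.42 without *Sox17*-cKO 2. For *Eppin* the excess was 2.99 (SE 0.54, edgeR adjusted p = 1.36e-04), and 4 of 15 alternatives lost the call: without control 2 (adjusted p = 0.336, with an excess of 2.02), without *Sox17*-cKO 2 (0.0798, with an excess of 2.71), with DESeq2 (0.0678, with an excess of 2.88) and with cells of up to 7500 detected genes (0.397, with an excess of 1.19). The differences for *Wfdc1* (-0.017, SE 0.41), *Wfdc10* (-0.30, SE 0.47) and *Wfdc18* (-2.17, SE 1.70) were not called. The gene most like *Eppin* over the classes, *1700011M02Rik*, was called in the same direction as *Eppin* (1.82, SE 0.39, edgeR adjusted p = 0.00419). *Kif21a* and *Tpd52l1*, the next most like *Eppin*, were not called.

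**Figure D5:**
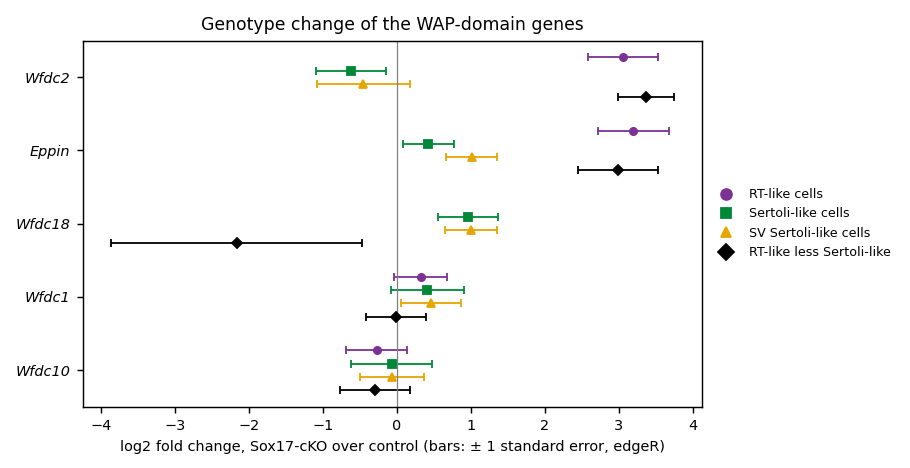
Log2 fold change by genotype of 5 of the genes in RT-like, Sertoli-like and SV Sertoli-like cells, and the value in RT-like cells less that in Sertoli-like cells; bars are 1 standard error. *Wfdc2* and *Eppin* lie at 3.06 and 3.20 in RT-like cells and at -0.62 and 0.43 in Sertoli-like cells.

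Related genes were read as whole lists. Of 39 other protease inhibitors, 12 were tested in RT-like cells and 0 were called, with a median log2 fold change of -0.13; the highest in level were *Cst3* (679 CPM, 0.20), *Spint2* (554 CPM, -0.09), *Timp2* (440 CPM, 0.10) and *Serpinb6a* (205 CPM, -0.28). *Serpinf1*, which encodes pigment epithelium-derived factor and is named here after its values were seen, had a log2 fold change of -3.02 (SE 0.71, edgeR adjusted p = 0.272). In Sertoli-like cells 24 were tested and 0 were called, led in level by the cystatins *Cst12* and *Cst9*, with log2 fold changes of -0.30 and 0.15. Of 25 serine proteases, 4 were tested in RT-like cells and 0 were called. The highest of these in level, *Plat*, the tissue plasminogen activator, had a log2 fold change of -2.90 (SE 0.46, edgeR adjusted p = 0.0595). The others were *Htra1* at -2.32 (SE 0.60, edgeR adjusted p = 0.333), *Furin* at 0.34 (SE 0.57) and *Htra3* at -0.36 (SE 0.78). In Sertoli-like cells 9 proteases were tested and 0 were called. *Plat* was the only gene of the inhibitor and protease lists called in the interaction (-3.32, SE 0.40, edgeR adjusted p = 5.36e-10). Of the other WAP-domain genes, 0 were tested in RT-like cells. In Sertoli-like cells 7 were tested and 0 were called, with log2 fold changes of 0.09 for *Wfdc9*, -0.82 for *Wfdc6a*, -0.14 for *Wfdc6b*, -0.0095 for *Wfdc15a*, 0.54 for *Wfdc8*, 0.27 for *Wfdc3* and 0.68 for *Wfdc13*.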

How the data were processed

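The deposited matrices held whole UMI counts per gene and barcode, not normalized, which the authors made with Cell Ranger (6.0.2 for replicates 1, 6.1.2 for replicates 2, per the file headers) on mm10. Libraries were made with a 10x Genomics 3′ kit, named v3 in the labels and v3.1 in the methods. The 6 genes and the lists were chosen with earlier results of these data known.

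Cells with 1000 to 4500 detected genes were kept, without a limit on mitochondrial UMIs, integrated by canonical correlation and grouped into clusters (Seurat 5.3.0, R 4.3.3; 2000 variable features without the 6 genes, 20 principal components, resolution 0.4). A cluster took a class when at least 3 listed markers were 2-fold higher in it and in at least 10% of its cells. Sertoli-like cells were clustered again at resolution 0.8, chosen after seeing the data because the first clustering gave no SV cluster; a sub-cluster was SV with at least 6 SV markers 1.5-fold higher, 3 of them 3-fold. Scrublet (Scanpy 1.11.5, Python 3.11.15) called 1, 229, 0 and 356 doublets and did not work in 2 libraries, so no cell was removed. Unnamed clusters with a high mitochondrial share (1766 cells) were left out.

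Sums of the UMIs of each class in each library were tested two-sided with edgeR 4.0.16 (TMM, filterByExpr, quasi-likelihood, Benjamini-Hochberg over all genes tested, threshold 0.05); DESeq2 1.42.0 was an alternative. CPM use all UMIs of a class, and fold changes use TMM scaling. On simulated data with 200 changed genes, edgeR recovered 67.9% of 4-fold and 5.7% of 2-fold changes in RT-like cells, 73.5% and 15.3% in Sertoli-like cells, 76.9% and 15.6% in SV Sertoli-like cells and 35.0% and 6.0% in the interaction. The 6 genes were always named, other WAP-domain genes where tested or above 5 CPM, and other inhibitors and proteases where called or among the 4 highest. Other alternatives were each library left out, no filter, the replicate number as a block, the 6 genes kept in the clustering, no integration, resolution 0.8, a limit of 10% mitochondrial UMIs, the highest doublet scores removed, up to 7500 detected genes and thinning to 2000 UMIs.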

Additional observations from a re-analysis of the deposited data

Results flagged for a closer look

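The change with genotype of *Wfdc2* differed between RT-like and Sertoli-like cells by the test of the difference itself. The log2 fold change in RT-like cells exceeded that in Sertoli-like cells by 3.37 (SE 0.37, edgeR adjusted p = 1.94e-11), with *Wfdc2* higher in both *Sox17*-cKO libraries than in both controls in RT-like cells and overlapping between genotypes in Sertoli-like cells.

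*Eppin* differed in the same way, by 2.99 (SE 0.54, edgeR adjusted p = 1.36e-04; over the alternatives 1.92e-05 to 0.397). Both *Sox17*-cKO libraries were higher than both controls in RT-like cells, where the control values rest on 3 and 4 UMIs.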

How the results depend on the processing

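The number of genes called by genotype in RT-like cells was the least stable result. Against 9, it was 20 with DESeq2, 100 without a filter on low counts, 16 among cells below 10% mitochondrial UMIs, 60 with cells of up to 7500 detected genes, 4 without integration of the libraries, 4 with the highest doublet scores removed, and 14 to 85 when 1 library was left out; the cause was not tested. *Wfdc2* was past the threshold in RT-like cells under 9 of 13 alternatives and *Eppin* under 6 of 13. In SV Sertoli-like cells the count was 1 without a filter on low counts and 0 to 6 when 1 library was left out, and the interaction gave 13 calls with DESeq2 against 57. Where leaving out a library left 1 library in a group, that library was assumed to vary like the others.

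The 2 same-numbered pairs of libraries deviated together from the group means (r = 0.326 over genes in RT-like, 0.526 in Sertoli-like and 0.351 in SV Sertoli-like cells), but no label ties the numbers to a shared litter or day. With the replicate number as a block, which leaves fewer residual degrees of freedom, edgeR called 273 genes in RT-like cells. *Wfdc2* (adjusted p = 6.89e-27) and *Eppin* (adjusted p = 1.71e-08) were among them, and 0 genes were called in either Sertoli comparison.

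Thinning to 2000 UMIs, which left out cells with fewer, lowered the share of cells with a UMI, since fewer UMIs per cell were read. The share went from 87.3% to 52.2% for *Wfdc1* (myoid-like) and from 43.4% to 23.9% for *Wfdc2* (RT-like). In tubule Sertoli-like cells it went from 98% to 89.8% for *Wfdc10* and from 65.3% to 41.4% for *Eppin*. For *Wfdc18* (SV Sertoli-like) it went from 61.4% to 43.7% and for *Slpi* (mesothelial-like) from 94.1% to 70.6%. The mean level in the highest class moved by less than its SD under each of 6 alternatives for the 5 genes other than *Slpi*. For *Wfdc2* the SD of 403 CPM is above the mean of 363 CPM, so this rule could not show a fall. For *Slpi* 3 alternatives gave a value (the 6 genes kept in the clustering, resolution 0.8 and below 10% mitochondrial UMIs). Each of these held 17 mesothelial-like cells and returned the main value, so they do not test it.

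Of the fold changes of the 6 genes under alternatives, 234 kept their direction and side of the threshold, 15 newly passed it, 4 no longer passed it and 21 changed sign; none of these 21 was called before or after. *Wfdc10* was at 0.034 in Sertoli-like cells without the cells found almost only in *Sox17*-cKO 2, and in SV Sertoli-like cells at 0.024 without integration, 0.031 below 10% mitochondrial UMIs and 0.0090 with up to 7500 detected genes. In the interaction, *Wfdc1* was at 0.0081 without integration and 0.019 with a Sertoli cluster of high mitochondrial share. It was at 0.061 without the Sertoli sub-clusters that had germ cell markers among their leading genes. *Wfdc18* was at 1.42 with up to 7500 detected genes. With 1 library left out, *Wfdc10* ranged from -0.68 to 0.15 in RT-like, -0.92 to 0.71 in Sertoli-like and -0.97 to 0.65 in SV Sertoli-like cells, *Wfdc1* from -0.19 to 1.5 in Sertoli-like and -0.16 to 1.40 in SV Sertoli-like cells, and *Wfdc2* from -1.11 to 0.20 in Sertoli-like cells. In the interaction these ranges were -1.39 to 0.79 for *Wfdc1*, -1.49 to 0.61 for *Wfdc10* and -6.38 to 4.09 for *Wfdc18*. Some alternatives were chosen after seeing the data. These were the ones without the cells found almost only in *Sox17*-cKO 2, without the sub-clusters with leading germ cell markers and with the cluster of high mitochondrial share.

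Depth limits the RT-like values. The smallest RT-like sum held 239264 UMIs, in *Sox17*-cKO 1, in which the floor of 3 counts is 12.5 CPM. In the controls the floor was 11.3 and 5.19 CPM, against 11.3 and 6.92 CPM of *Eppin*, and levels of *Wfdc18* and *Slpi* there were not measurable.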

Other observations

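*Wfdc2* and *Sox17* were read in the same RT-like cells. A *Sox17* UMI was found in 26 of 36 and 39 of 73 RT-like cells of the controls and in 9 of 32 and 20 of 85 of the *Sox17*-cKO libraries. A UMI of *Wfdc2* was also found in 6 and 6 of these *Sox17* cells of the controls and in 5 and 11 of those of *Sox17*-cKO mice. A UMI of *Sox17* in a cell was not set against the share that RNA from other cells can give.

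*Foxj1*, a regulator of motile cilia, was found in 21 and 26 RT-like cells of the controls and in 11 and 28 of *Sox17*-cKO mice, and 4, 7, 8 and 17 of these had a *Wfdc2* UMI.

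A Sertoli sub-cluster of 220 cells came almost wholly from 1 library, with 213 cells from *Sox17*-cKO 2. It had 56.6 CPM of *Wfdc18*, 261 CPM of *Eppin* and 1900.5 CPM of *Wfdc10*, and without it the *Wfdc18* level of that library in Sertoli-like cells was 126 CPM.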
